A study of Homo sapiens with 2 samples.

Results

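The 43 genes described here encode the enzymes and regulators with which a cell handles reactive oxygen, aldehydes, quinones and foreign compounds: glutathione S-transferases, the enzymes that make and recycle glutathione, the NRF2 pathway, aldo-keto reductases and aldehyde dehydrogenases, and cytochromes P450 with partner hydrolases. They were taken as a list of symbols, and each probe set that carries exactly 1 of those symbols was used, which gave 85 probe sets of the 54675 on the array. All 43 genes had at least 1 such probe set. The whole table holds 19775 genes named in the same way.

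Panc1 is a human pancreatic ductal adenocarcinoma line. The mock population carries the empty vector, and the syk population carries wild-type SYK, a cytoplasmic tyrosine kinase. Both are stable transfectants kept below confluence through regular passaging under hygromycin, with no further agent added, and the sources used here do not say whether each is a pool or a clone. The title of the series calls the mock cells drug-resistant, and the comparison asks which transcripts differ once SYK is expressed again. There was 1 array per population, so no value has a replicate error, no test of the conditions was possible, and culture, RNA preparation and array cannot be told apart from the population.

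Values are RMA log2 intensities, so a difference of 1 is 2-fold. Each gene is represented by its brightest probe set, and differences are syk minus mock. Genes entered counts when their mean over both arrays reached 4.25, the median of all probe sets. Signal at or below 4.77, the highest value among 27 probe sets against bacterial transcripts, is called dim, and no fold is given where both arrays are dim. The other bacterial probe sets reached 3.61 at most. As a rough guide to precision, the log2 differences of several probe sets of 1 gene scattered with a pooled SD of 0.35, which includes no variation between cultures.

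The array medians were 4.26 on mock and 4.24 on syk. The 3' minus 5' signal of ACTB was 1.95 on mock and 2.37 on syk, and that of GAPDH was 0.19 and 0.32. This RNA measure moves with every difference below, and its part in them was not tested. The brightest SYK probe set was dim on both arrays (4.27 and 4.73), and the remaining SYK probe sets differed by -0.27 to -0.07, so the labels have no check from SYK itself. Of 7 epithelial and ductal markers, 6 were above 4.77 on both arrays. The exception, CDH1, read 6.34 on mock and 3.47 on syk. KRT19 read 10.88 and 9.44, and the remaining markers of this list differed by -0.76 (KRT8) to 0.34 (SOX9). All named acinar (3), endocrine (4) and endothelial (4) markers were dim on both arrays, as were 4 of 5 hepatocyte markers, with TTR at 4.62 and 4.84. Of 4 immune markers, 3 were dim on both arrays, with CD79A at 5.06 and 5.24. Of 5 fibroblast markers, 3 were dim on both, while COL1A1 read 11.16 and 10.06 and ACTA2 5.18 and 4.44.

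Glutathione is a tripeptide that cells use to scavenge peroxides and to tag reactive compounds for export. NRF2, encoded by NFE2L2, is held in the cytoplasm and sent for degradation by KEAP1. When KEAP1 is modified by oxidants or electrophiles, NRF2 enters the nucleus, pairs with small MAF proteins and activates genes that carry antioxidant response elements. Many enzymes of this set act on anticancer drugs as well, by conjugation, reduction or hydrolysis.

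The members went both ways. Of 35 that passed the brightness filter, 3 were higher on the syk array by 2-fold or more (MGST1, CYP1B1 and SRXN1). Another 4 were lower by as much (UGDH, ALDH1A3, MGST3 and EPHX1). All 7 were above 4.77 on both arrays. These are 8.57% and 11.4% of the members, against 3.61% higher and 3.65% lower among all 12814 genes past the filter. With both arrays raised to 4.77 the counts were again 3 and 4, against 3.08% and 3.34% of all genes. At 1.5-fold, 3 members were higher and 9 lower (8.57% and 25.7%), where all genes gave 12.2% and 10.5%. The 9 include GPX3, whose syk value was dim. Of 30 members above 4.77 on both arrays, 3 were higher and 8 lower (26.7%) at 1.5-fold. Among all 11047 such genes, 1315 were higher and 1162 lower (10.5%). The median difference was -0.18 over the 35 members and 0.01 over all genes. It was -0.03 over the members with both arrays raised to 4.77. Each count rests on few genes, and how far such counts vary between cultures was not tested.

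Of the 43 members, 12 were dim on both arrays. The 8 under the filter were GPX2, AKR1B10, AKR1C3, ALDH1A1, ALDH3A1, CYP1A1, CYP2J2 and CYP3A5. The other 4, GSTA1, AKR1C1, AKR1C2 and CES1, passed the filter but lay at or below 4.77.

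**Figure D1:**
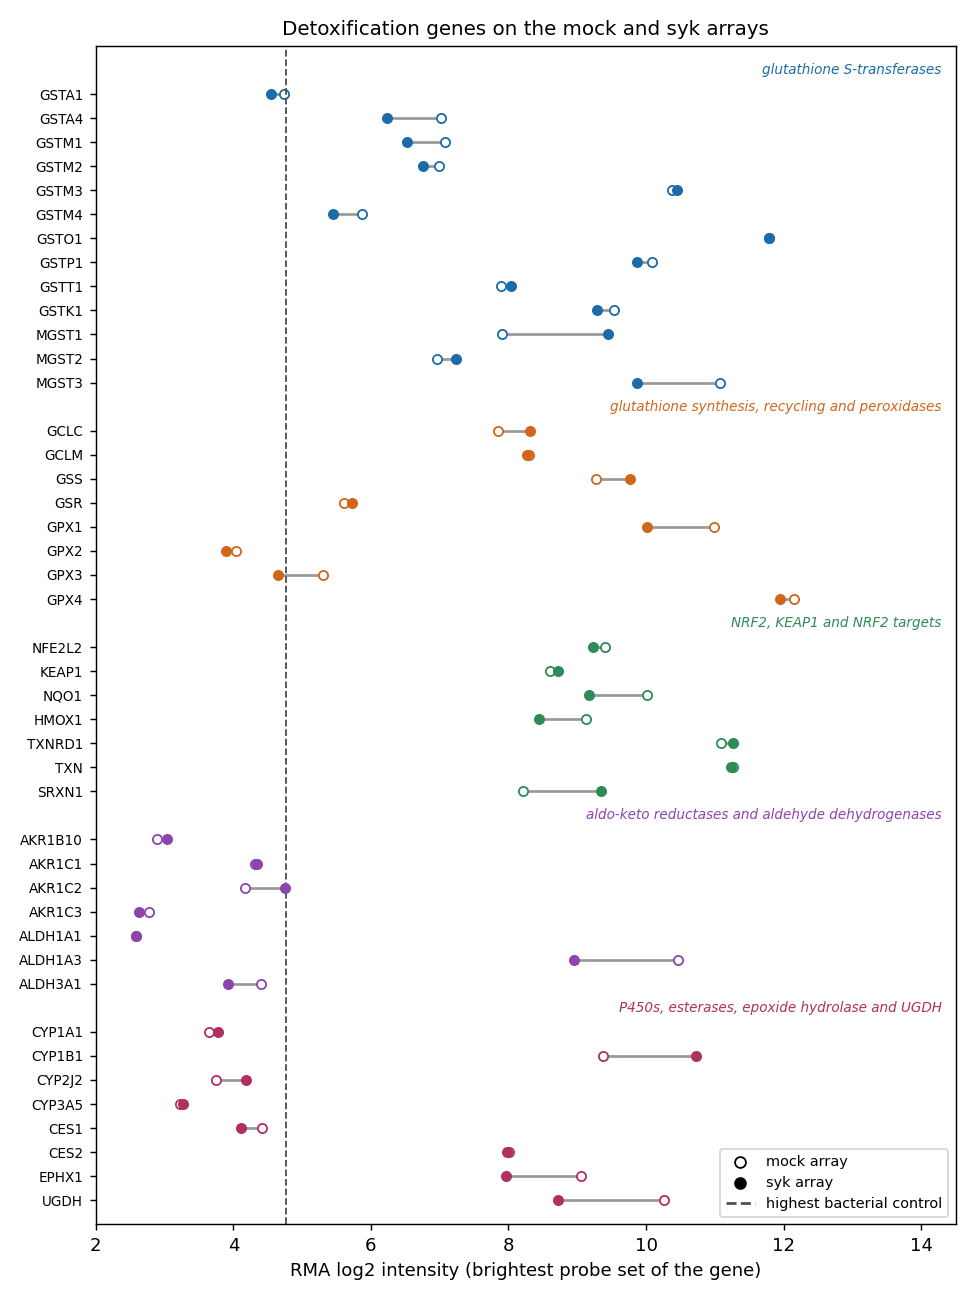
RMA log2 intensity of the brightest probe set of each of the 43 genes on the mock array (open circles) and the syk array (filled circles), by gene group, with 1 array per population. The dashed line marks 4.77, and the longest bars are those of MGST1 and CYP1B1 (syk to the right) and of UGDH and ALDH1A3 (syk to the left); positions of different genes are not comparable levels.

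Glutathione S-transferases join glutathione to electrophiles, and the membrane-bound MGST enzymes also reduce lipid peroxides. All 13 genes passed the filter, of which 1 was higher and 1 lower by 2-fold or more, with 11 under 2-fold. Their median difference was -0.22, with 4 above 0 and 9 below.

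The 2 that passed 2-fold were both microsomal enzymes, and they went in opposite directions. MGST1, a glutathione transferase of the endoplasmic reticulum and outer mitochondrial membrane, read 7.91 on mock and 9.45 on syk by its brightest probe set, 2.92-fold higher. A second probe set read 7.89 and 9.28, and another 5.88 and 7.51. The syk array was thus brighter by 1.39 to 1.63 in every MGST1 probe set with signal above 4.77. The other probe sets, both of the plain _at kind, were dim on both arrays (3.40 and 3.45, and 2.40 and 2.94). Those with signal end in _x_at or _s_at, suffixes for probes that can also match similar transcripts.

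MGST3, which has transferase and peroxidase activity, read 11.07 on mock and 9.87 on syk, 2.30-fold lower. This rests on 1 probe set, of the _s_at kind. A second, of the _x_at kind, read 6.38 and 6.39, and the remaining one was dim at 3.01 and 3.34. With the median over probe sets the MGST3 difference was 0.0086, and with plain _at probe sets alone, of which only the dim one remained, it was 0.33. MGST2, an enzyme that can also make leukotriene C4, read 6.97 and 7.24, a difference of 0.27.

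Among cytosolic transferases, GSTA4, which clears the lipid peroxidation product 4-hydroxynonenal, had the largest difference by the brightest probe sets. It read 7.02 on mock and 6.23 on syk, 1.73-fold lower, and its second, dim probe set differed by -0.62. The mu-class genes GSTM1, GSTM2 and GSTM4 lie in 1 gene cluster and are close in sequence. GSTM1 read 7.08 and 6.52 (1.47-fold lower), GSTM2 6.996 and 6.754, and GSTM4 5.87 and 5.45 (1.34-fold lower). Those of GSTM1 and GSTM2, and 1 of the GSTM4 pair, are _x_at sets, so the 3 readings may not be independent of each other, which was not tested. GSTM3, the remaining mu-class member, read 10.38 and 10.44, a difference of 0.07.

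GSTP1, the pi-class enzyme abundant in many carcinomas, read 10.08 on mock and 9.86 on syk, a difference of -0.22. GSTO1, an omega-class enzyme with reductase activity, read 11.79 on both arrays. GSTK1, a mitochondrial and peroxisomal enzyme, read 9.53 and 9.28. GSTT1, of the theta class, read 7.89 and 8.04 (0.15), and its other probe set differed by 0.48. GSTA1 was dim, at 4.73 and 4.55. These cytosolic and organellar transferases therefore differed by less than the scatter between probe sets of 1 gene, apart from the second GSTT1 probe set and the dimmer GSTA1 one (0.50).

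**Figure D2:**
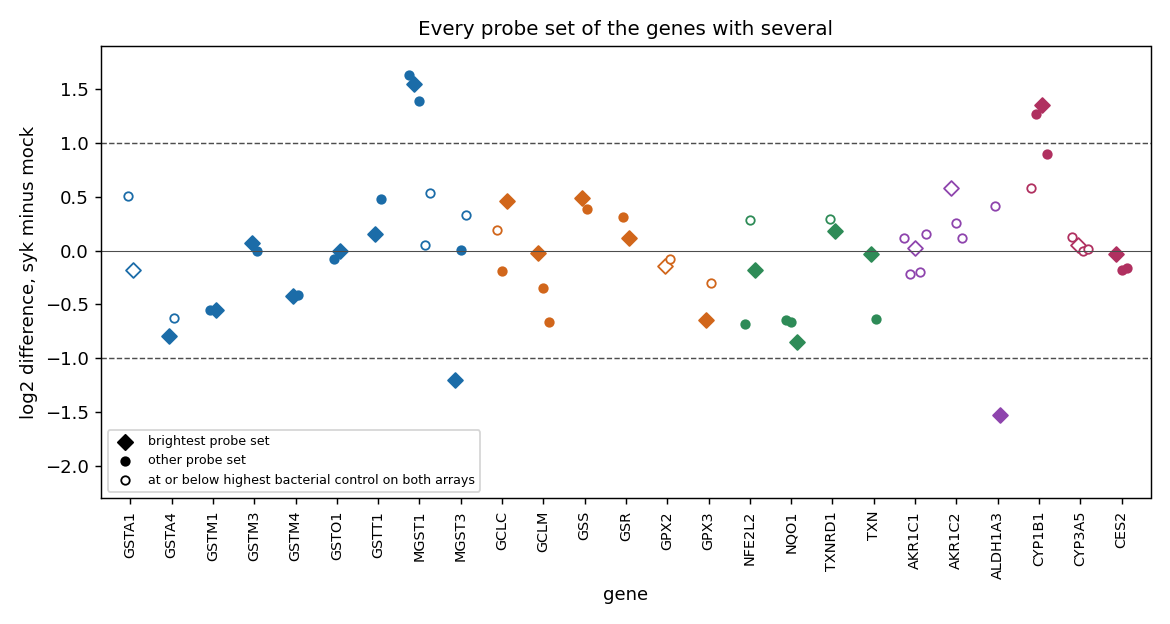
Log2 difference, syk minus mock, of every probe set of the 25 genes that have several, with the probe set that represents the gene as a diamond and probe sets dim on both arrays drawn hollow. The filled MGST1 and CYP1B1 points lie between 0.89 and 1.63, the NQO1 points between -0.85 and -0.65, and the MGST3 and TXN points lie apart from each other within 1 gene.

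In glutathione synthesis and recycling no gene passed 2-fold. Of the 7 genes of this group past the filter, including the peroxidases, 3 were above 0 and 4 below, with a median of -0.02. GCLC, the catalytic subunit of the rate-limiting glutamate-cysteine ligase, read 7.85 on mock and 8.31 on syk, 1.38-fold higher. Another GCLC probe set went the other way (6.94 and 6.75). GCLM, the modifier subunit of the same ligase, read 8.30 and 8.28 by its brightest probe set, while the other GCLM probe sets differed by -0.35 and -0.66. GSS, which adds glycine in the second step, was higher in both of its probe sets, at 9.28 and 9.77 (1.40-fold) and at 9.16 and 9.54. GSR, which regenerates reduced glutathione, read 5.61 and 5.72.

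The peroxidases use glutathione to reduce peroxides, and the 3 with signal above 4.77 were lower on syk. GPX1, the main cytosolic selenoenzyme, read 10.99 on mock and 10.01 on syk, 1.98-fold lower by its single _s_at probe set, just short of 2-fold. GPX3, the secreted form, read 5.30 and 4.65, with the syk value dim, which makes it at least 1.45-fold lower. GPX4, which reduces lipid peroxides in membranes and restrains ferroptosis, read 12.15 and 11.95, a difference of -0.20. GPX2, the gastrointestinal form, was dim on both arrays at 4.04 and 3.89.

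NRF2 and its inhibitor differed little. NFE2L2 read 9.41 on mock and 9.23 on syk, a difference of -0.18. Its other probe sets were near the dim range, at 4.91 and 4.23 and at 4.12 and 4.41. KEAP1 read 8.61 and 8.72, a difference of 0.11. The array reads transcript levels and has no measure of NRF2 protein, through which KEAP1 acts.

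The NRF2 targets counted in this group went both ways. SRXN1, sulfiredoxin, which restores over-oxidised peroxiredoxins, read 8.21 on mock and 9.34 on syk, 2.19-fold higher by its only probe set. NQO1, the quinone reductase often used as an NRF2 readout, went the other way. It read 10.01 and 9.17 by its brightest probe set, 1.80-fold lower, and the others read 9.87 and 9.20, and 8.75 and 8.10. All NQO1 probe sets, each of the _s_at kind, were thus lower on syk by similar amounts. HMOX1, the inducible heme oxygenase, read 9.12 and 8.44, 1.60-fold lower.

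The thioredoxin pair was nearly level by its brightest probe sets. TXNRD1, thioredoxin reductase, read 11.09 on mock and 11.27 on syk. TXN, thioredoxin itself, read 11.26 and 11.23, but its second probe set read 8.629 and 7.996, a difference of -0.63. The NRF2 group includes NFE2L2 and KEAP1 themselves. GCLC, GCLM and GSR are NRF2 targets too but were counted once, with glutathione synthesis. Over the 7 genes of the NRF2 group, all past the filter, 1 was at least 2-fold higher and 0 were lower by as much, with a median of -0.03. Averaging each gene's probe sets moved that median to -0.19.

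To show what the promoters of these genes hold, 300 bases around annotated starts (250 before and 50 after, RefSeq, GRCh38.p14) were searched on both strands for TGACNNNGC, the core of the antioxidant response element. Of the 43 genes, 34 had an entry. AKR1B10, ALDH3A1, CES1, CYP1B1, GSR, GSS, GSTT1, HMOX1 and MGST2 had no match by symbol. The core occurred in 10 of the 34 (29.4%), as it did in 16.1% of 27058 genes with a promoter entry. The motif can overlap the AP-1 motif TGACTCA, as it does in GSTP1. The windows below lie upstream of the start, are written 5′ to 3′ on the gene's strand, and have the matches in capitals. They are shown because they belong to 2 genes that were lower on syk and to 3 NRF2-linked genes. These 3 differed by under 0.25 by their brightest probe sets, while the other GCLM probe sets differed by -0.35 and -0.66. GSTM1, with a difference of -0.56, had the core too, and its window is not shown.

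EPHX1, difference -1.10, chr1:225825251-225825309, plus strand: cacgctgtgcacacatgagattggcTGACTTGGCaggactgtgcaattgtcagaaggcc
GSTA4, difference -0.79, chr6:52995285-52995318, minus strand: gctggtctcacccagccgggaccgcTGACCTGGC
GSTP1, chr11:67583721-67583779, plus strand: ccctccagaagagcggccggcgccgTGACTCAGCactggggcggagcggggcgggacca
GCLM, chr1:93909431-93909489, minus strand: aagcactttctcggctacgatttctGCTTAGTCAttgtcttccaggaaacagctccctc
TXNRD1, chr12:104215655-104215713, plus strand: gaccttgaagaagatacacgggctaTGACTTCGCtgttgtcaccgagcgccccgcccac

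The EPHX1 window belongs to 1 of 3 annotated starts, the only one of them with the core. The TXNRD1 window belongs to 1 of 2, and the other start had the core as well. Members with the core and members without it passed 2-fold in both directions. The counts are too small to show whether the letters go with the difference, and all genes with the core were not counted for comparison. Among the 9 members with the core that passed the filter, 1 was at least 2-fold higher (MGST1, whose match lies 31 bases after 1 of its starts) and 1 at least 2-fold lower (EPHX1), with differences from -1.10 to 1.55. Among 19 such members without it, 1 was at least 2-fold higher (SRXN1) and 3 lower (UGDH, ALDH1A3 and MGST3). NQO1 had no match in its window either. Elements further upstream lie outside these windows.

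The same windows were searched for GCGTG, the core that the aryl hydrocarbon receptor binds, which can overlap the end of the first motif. It occurred in 19 of the 34 members (55.9%) and in 40.5% of all genes with an entry. Among the 17 members with it that passed the filter, 4 were lower by 2-fold or more (UGDH, ALDH1A3, MGST3 and EPHX1) and 1 higher (SRXN1). Among the 11 without it, 1 was higher (MGST1) and 0 were lower by as much. Over all genes past the filter, with or without this core, 3.61% were higher and 3.65% lower. The shares for all genes with and without the core were not counted, so these few members have no matching background. All matches of UGDH and SRXN1 lie after the start, and those of EPHX1 belong to 1 of its 3 starts. So short a motif is common by its length, and a match is a description of letters, not of binding.

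**Figure D3:**
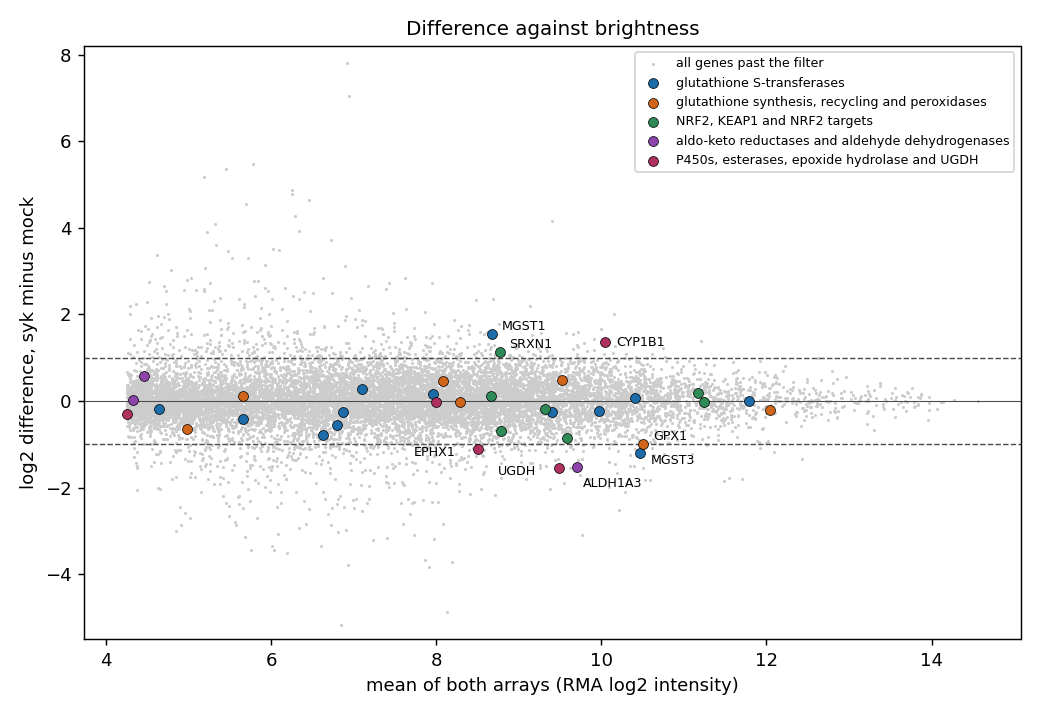
Log2 difference, syk minus mock, against the mean RMA log2 intensity of both arrays for the 12814 genes past the filter (grey) and the 35 members among them (coloured by group). Dashed lines mark 2-fold; MGST1, CYP1B1 and SRXN1 lie above the upper line, and UGDH, ALDH1A3, MGST3 and EPHX1 below the lower one, with GPX1 just inside it at -0.98.

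Aldo-keto reductases reduce aldehydes and ketones, and AKR1C enzymes and AKR1B10 are strongly induced in cancers with active NRF2. None of these 4 genes had signal above 4.77 on either array. The 9 probe sets of AKR1C1, AKR1C2 and AKR1C3 ran from 2.62 to 4.75, the highest being that of AKR1C2 on syk (4.17 on mock). AKR1B10 read 2.89 and 3.04. The AKR1C genes are near-identical neighbours, and several of their probe sets end in _x_at.

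The 16 nearest genes past the filter around the AKR1C cluster, 8 on each side in RefSeq gene order, were chosen by that filter. Of these, ADARB2, PFKP-DT and AKR1C6P, named after their values were seen, were dim on both arrays. The 16 genes had differences from -0.91 to 0.26 with a median of -0.47, and 0 passed 2-fold. Around and inside the GSTM cluster, 17 genes had a median of 0.00, with 0 at least 2-fold higher. That median is the value of UBL4B, which was dim at 4.54 on both arrays. CELSR2, EPS8L3 and KCNC4, like UBL4B named after their values were seen, were also dim on both. The 1 gene at least 2-fold lower there was CSF1, a macrophage growth factor, at 9.11 on mock and 7.84 on syk.

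Of the aldehyde dehydrogenases among the members, only ALDH1A3 was above 4.77. This enzyme oxidises retinal to retinoic acid and is one source of the aldehyde dehydrogenase activity used to sort tumour cells. It read 10.47 on mock and 8.95 on syk, 2.87-fold lower, and its other probe set was dim on both arrays (3.73 and 4.15). Averaging both probe sets gave -0.55. ALDH1A1, the other retinal-oxidising member, read 2.58 on both arrays, and ALDH3A1, which handles aromatic aldehydes, was dim at 4.40 and 3.92. In this group of 7 genes 3 passed the filter, 2 of them dim on both arrays, and their median was 0.02.

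CYP1B1 was the one P450 among the members with signal. It hydroxylates polycyclic hydrocarbons and oestrogens and is a target of the aryl hydrocarbon receptor. Its brightest probe set read 9.37 on mock and 10.72 on syk, 2.55-fold higher. A second read 8.46 and 9.73 and another 8.57 and 9.47, which is under 2-fold (0.89). The remaining one was dim at 3.87 and 4.45. All probe sets of CYP1B1, each of the _s_at kind, were brighter on syk. CYP1A1, the classic inducible target of the same receptor, was dim at 3.65 and 3.77. CYP2J2, an arachidonic acid epoxygenase, and the drug-metabolising CYP3A5 were also dim, at 3.75 and 4.18 and at 3.22 and 3.27 by their brightest probe sets.

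EPHX1, the microsomal epoxide hydrolase that detoxifies the epoxides P450s make, read 9.06 on mock and 7.96 on syk, 2.15-fold lower by 1 probe set. UGDH makes UDP-glucuronic acid, the donor for glucuronidation and a precursor of glycosaminoglycans. It read 10.26 and 8.72, 2.92-fold lower, also by 1 probe set. CES2, a carboxylesterase that activates the prodrug irinotecan, read 8.01 and 7.98, and its other probe sets differed by -0.18 and -0.17. CES1, the liver form, was dim at 4.41 and 4.11. Of the 5 genes past the filter in this group, 1 was higher and 2 were lower by 2-fold or more. Their median of -0.30 is the value of the dim CES1, and it was -0.03 with both arrays raised to 4.77.

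A wider list of 160 genes of the same pathways was examined beside the members, of which 144 had a probe set with 1 symbol and 113 passed the filter. Of these, 5 (4.42%) were higher and 11 (9.73%) lower by 2-fold or more, next to the 3.61% and 3.65% of all genes. With both arrays raised to 4.77, 10 were lower by as much. The median over the 113 was -0.08.

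Among 10 partners and regulators of NRF2 none passed 2-fold, and their median was -0.18. Of 14 further genes listed as NRF2 targets, 1 passed 2-fold in each direction. PGD, a pentose phosphate dehydrogenase that supplies NADPH, read 9.61 on mock and 8.45 on syk, 2.24-fold lower, but another of its 3 probe sets differed by 0.05. TXNIP, which binds and inhibits thioredoxin and is better known as a glucose-responsive gene, read 7.29 and 9.15, 3.65-fold higher, with all 3 probe sets between 1.87 and 2.17.

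The list of peroxiredoxins, glutaredoxins, superoxide dismutases, catalase and further thioredoxin genes had a median of -0.21 over 15 genes, with 1 past 2-fold. Catalase, CAT, read 10.60 on mock and 8.90 on syk, 3.25-fold lower, and the weakest of its 3 probe sets differed by -0.25. In the other glutathione genes 2 of 17 were at least 2-fold lower and 0 higher. GPX8, a peroxidase of the endoplasmic reticulum, read 9.497 and 8.149, 2.55-fold lower, and its other probe set differed by -2.24. ANPEP, a membrane aminopeptidase that completes the breakdown of exported glutathione, read 9.29 and 8.12, 2.25-fold lower, with a weakest probe set at -0.07.

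In the aldehyde list 2 of 20 genes were at least 2-fold lower and 1 higher. ALDH7A1, which acts in lysine breakdown, read 8.38 on mock and 7.16 on syk (2.32-fold lower), and all 3 of its probe sets were at -0.91 or below. ALDH3B1 read 6.95 and 5.75, and another of its probe sets differed by 0.05. DHRS9, which oxidises retinol to retinal, was 2.36-fold higher, at 6.88 and 8.12.

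Genes of the P450 and xenobiotic receptor list included other targets of the aryl hydrocarbon receptor, which went both ways. Of 22 genes past the filter, 1 was at least 2-fold higher and 3 lower, 1 of them (CYP27C1) with a dim syk value. AHRR, which encodes the repressor of that receptor, read 7.29 on mock and 4.85 on syk, 5.44-fold lower by 1 probe set. TIPARP, another target of the receptor and a feedback inhibitor of it, read 8.11 and 9.19, 2.11-fold higher. AHR itself, named after its value was seen, read 9.43 and 9.14. CYP26B1, which breaks down retinoic acid, read 6.264 and 5.002, 2.40-fold lower, and its other probe set differed by -0.13. CYP27C1, a retinoid desaturase, read 5.44 and 4.26, which makes it at least 1.59-fold lower.

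Conjugating enzymes had a median of 0.02 over 15 genes, with 2 past 2-fold in each direction. UGT8, which makes galactosylceramide, read 3.66 on mock and 6.74 on syk, at least 3.92-fold higher against the dim mock value. PON3, a lactonase, read 5.49 and 6.82 (2.51-fold higher). UGCG, which makes glucosylceramide, read 9.87 and 8.44 (2.70-fold lower), with all 3 probe sets at -0.94 or below. PAPSS2, which makes the sulfate donor for sulfation, read 10.40 and 9.03 (2.59-fold lower), and its weakest probe set differed by -0.27.

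**Figure D4:**
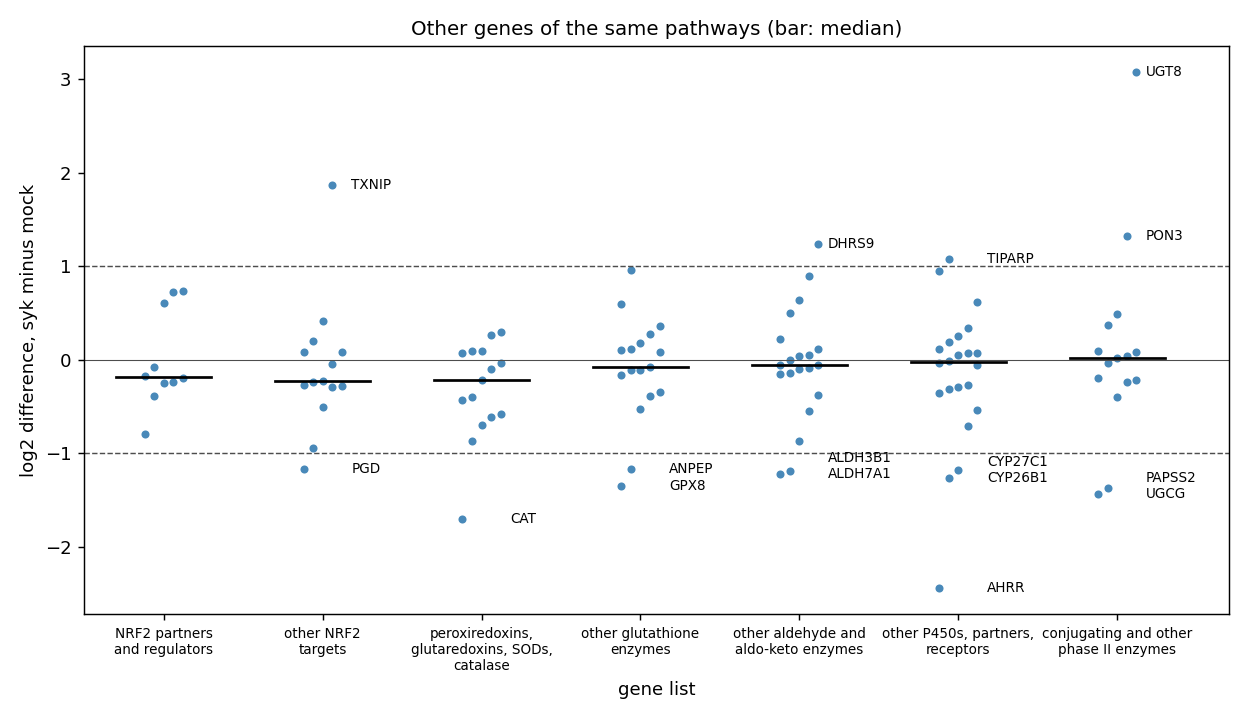
Log2 difference, syk minus mock, of the 113 genes of the wider lists that passed the filter, 1 point per gene and 1 column per list, with the list's median as a bar and 2-fold as dashed lines. Medians lie between -0.23 and 0.02, and the named points are the 5 genes higher and the 11 lower by 2-fold or more.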

How the data were processed

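Total RNA of each population was labelled with biotin and hybridised to an Affymetrix array, per the labels' protocols. The deposited table holds 1 log2 intensity per probe set and array, made by the authors with RMA per the submitters' processing notes, with no version or settings. RMA compresses differences between dim probe sets. The log2 scale was inferred from the range of the values (2.14 to 14.6). Gene names come from GEO's annotation of the platform: 41097 had 1 symbol, 1801 several and 11777 none, and all 85 member probe sets matched the current RefSeq symbol by gene ID.

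Differences, counts and medians were computed in Python 3.11.15 with pandas 2.3.3 (loess with statsmodels 0.14.6) and tested on simulated data. Members, lists, filter, dim level and alternatives were chosen with earlier results of these data known. All members were named, and wider-list genes were named when at least 2-fold different (up to 4 per list). Alternatives covered the choice of probe set, scaling (median centring, loess with span 0.2), the filter, the dim level and the threshold. A planned comparison of protein sequences was not run. The number of arrays limits the precision.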

Additional observations from a re-analysis of the deposited data

How the results depend on the processing

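The count of members at least 2-fold higher stayed at 3 under all alternatives except plain _at probe sets alone, which left 24 members and a count of 1 (SRXN1), since MGST1 then read from a dim probe set (0.05) and CYP1B1 had none. The 4 lower became 2 of 32 with the mean or the median over probe sets, which took out MGST3 and ALDH1A3. They became 5 after loess, 3 of 24 with plain _at probe sets and 9 at 1.5-fold. MGST3 turned sign with the median over probe sets (0.0086) and with plain _at probe sets (0.33). The median over members was -0.0292 without a filter and -0.0283 with both arrays raised to the dim level, since dim genes then counted or read 0. With the mean and the median over probe sets the NRF2 group had medians of -0.19 and -0.18, and glutathione synthesis and peroxidases -0.20 under both. Aldo-keto and aldehyde enzymes, at 0.02 in the report, had -0.55 under both and -1.52 with plain _at probe sets or the filter at the 75th percentile, resting on ALDH1A3 alone, and -0.23 with the filter on the brighter array. The P450 group had -1.10 with plain _at probe sets, 0.0098 without a filter, -0.57 with the 75th percentile filter and -0.0292 with the dim level. Glutathione S-transferases had -0.0902 with plain _at probe sets. In the wider list, 5 of 113 genes were at least 2-fold higher and 11 lower. Higher were 3 of 82 with plain _at probe sets and 3 of 73 with the 75th percentile filter. Lower were 6 of 105 with the mean, 7 of 102 with the median and 7 of 73 with that filter. Over all genes, 462 higher and 468 lower of 12814 became 284 and 278 of 11652 with the mean. They became 294 and 279 of 11218 with the median, and 220 and 266 of 8031 with the 75th percentile filter. Where no reason is given, the cause was not tested. Of 250 gene values under alternatives, 237 moved by less than the scatter between probe sets of 1 gene and 11 by more. The other 2 were the MGST3 values that turned sign. For the 7 genes past 2-fold these counts were 34, 5 and 2 of 41. Sign also changed among the 237 and the 11. GCLC went from 0.46 to -0.19 with plain _at probe sets. Smaller moves across 0 occurred in GSTA1 (-0.18 to 0.16 with the mean over probe sets), AKR1C1 and GSTO1. No paired analysis was possible because each population had 1 array.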
